A study of Mus musculus with 24 samples.

Results

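The distal end of mouse chromosome 2 carries a cluster of KRAB zinc finger genes, and the MspI fragments of that cluster were described in brown adipose tissue (BAT) of infant mice. The members were chosen by position, as the fragments listed between 174.9 and 178.2 Mb of chromosome 2 in GRCm38, and the window itself was chosen from measured values, because it holds the fragment in Gm14399 with the smallest p of the DDT against VEH comparison in the whole table. There were 239 such fragments among the 65535 in the table. Libraries were made from BAT of female C57BL/6J mice at PND 12, each a pool of 2 to 5 littermates, so that a litter was the replicate. In the DDT group (12 libraries) the dams were gavaged with DDT, a blend of its p,p' and o,p' isomers totalling 1.7 mg/kg, from mid-gestation to PND 5, and in the VEH group (12 libraries) they received organic olive oil. The tissue label could not be checked against marker genes, since only genomic DNA of 3 chromosomes was at hand.

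KRAB zinc finger proteins bind DNA through an array of C2H2 zinc fingers and carry a KRAB domain that recruits the corepressor KAP1 (Trim28), which in turn brings histone H3K9 methyltransferases and DNA methylation to the bound site. Many of them silence transposable elements, and their genes arose by repeated tandem duplication, so that neighbouring genes of one cluster can be almost the same in sequence. DNA methylation is the addition of a methyl group to cytosine, mostly at CpG, and is usually low at active transcription starts and high between genes. RRBS reads it by cutting DNA with MspI at CCGG and sequencing short fragments after bisulfite conversion.

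GENCODE M21 places 88 genes in these 3.3 Mb, of which 46 were protein-coding, 40 were pseudogenes and 2 were long intergenic RNAs. RefSeq gives 33 genes with coding exons in the window, and the product names of 18 of them mention a zinc finger or a KRAB box. Of the other 15, 3 have a Zfp symbol, and 12 have neither, among them Phactr3, a phosphatase 1 and actin regulator at the distal edge that is no zinc finger gene. The authors assigned the fragments to 42 genes, calling 166 fragments upstream and 71 intronic. They gave Zfp931 as the gene of 14 fragments that lie inside Phactr3 in GENCODE, and the name Etohi1 that they used is a synonym of Zfp971.

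The Gm14399 fragment, which led to the window, belonged to a set of 36 near-identical fragments, and 6 copies with levels in at least 5 libraries of each group are shown here because the results turn on how they differ. Each is printed 5' to 3' in the direction of the Gm14399 copy, from GRCm38, with CpGs in capitals, and each lies in an intron, at most 381 bp from a transcription start.
Gm14399, chr2:175141559-175141653, plus strand: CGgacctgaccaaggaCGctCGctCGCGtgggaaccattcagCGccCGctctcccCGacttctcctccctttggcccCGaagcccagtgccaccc
Gm14295, chr2:176798993-176799087, minus strand: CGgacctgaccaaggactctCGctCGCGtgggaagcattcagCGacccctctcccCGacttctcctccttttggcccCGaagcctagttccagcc
Gm14403, chr2:177498592-177498686, minus strand: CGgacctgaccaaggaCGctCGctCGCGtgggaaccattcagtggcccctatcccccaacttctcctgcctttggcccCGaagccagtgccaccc
Gm14325, chr2:177839863-177839958, plus strand: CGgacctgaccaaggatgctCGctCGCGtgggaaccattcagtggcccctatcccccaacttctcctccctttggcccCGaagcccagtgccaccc
Zfp971, chr2:178023658-178023751, minus strand: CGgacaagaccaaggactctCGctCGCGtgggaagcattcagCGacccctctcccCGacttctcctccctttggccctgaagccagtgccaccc
Zfp931, chr2:178077985-178078079, plus strand: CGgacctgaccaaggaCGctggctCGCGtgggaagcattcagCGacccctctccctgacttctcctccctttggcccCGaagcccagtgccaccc
The copy of Gm14326 differs little from these but had only 8 calls in all 24 libraries, and it is shown as a copy without a level.
Gm14326, chr2:177956835-177956929, plus strand: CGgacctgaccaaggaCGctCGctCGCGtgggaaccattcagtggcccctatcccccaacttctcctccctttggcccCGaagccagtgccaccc

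All 36 copies lay in the cluster. They were 91 to 96 bp long, 29 of them exactly 95 bp, and were 5 to 9 edits (substitutions, insertions or deletions of 1 base) away from the Gm14399 copy, whereas the next fragment of the table was 27 edits away. The limit of 15 edits for a copy was set after these distances were seen. An identical sequence stood elsewhere in the set for 26 of the 36 copies, and 31 were within 1 edit of another. The Gm14399 copy was 5 edits from its nearest relative, as was that of Zfp931, and the copy of Zfp971 was 6 edits away, whereas those of Gm14295, Gm14403 and Gm14325 were each 1 edit from another copy. Copies held 4 to 9 CpGs with a median of 6, and Gm14399 was the only one with 9. Of the 36, 30 sat inside a coding gene between 277 and 432 bp from a transcription start, none of them in an exon, and the other 6 lay farther from a start.

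Few fragments of the cluster had read ends found at a single place in the genome. For each fragment, the first 50 bases from either end (30 bases for fragments shorter than 50 bp) were searched in GRCm38 with every C read as T, as an aligner of bisulfite reads sees them. In the cluster, 184 of 239 fragments (77%) had no end that was unique in the genome, against 5026 of 25859 (19.4%) on the rest of chromosome 2, 4.59% in the flanks of equal length on both sides, and 14.3% in other zinc finger genes of the table. Of those 184, 162 (88%) had no call in any library, against 5 of 20 with 1 unique end and 2 of 35 with both ends unique. The rest of chromosome 2 had like shares, with 81.5% of its fragments without a unique end lacking calls, 19% of those with 1 unique end and 1.95% of those with both.

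**Figure D1:**
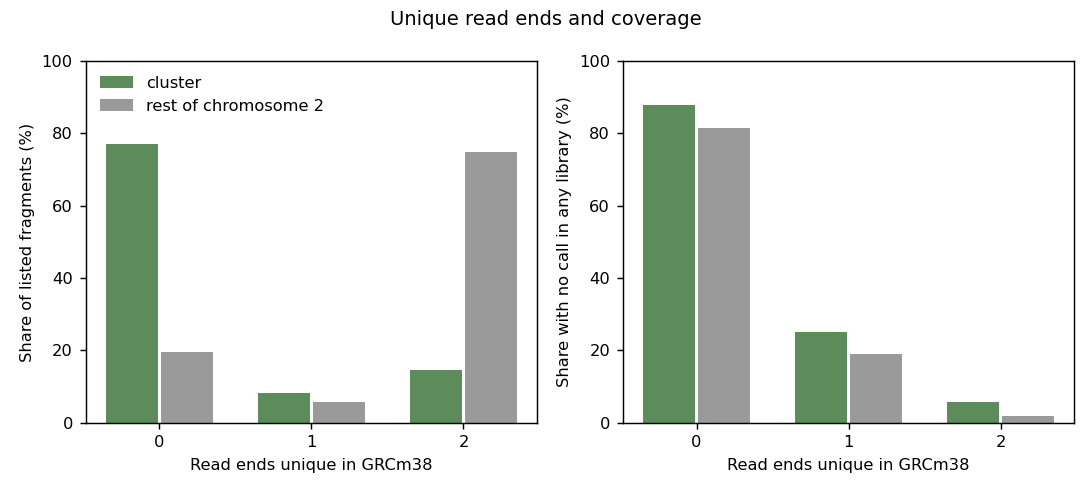
The left plot gives the share of listed fragments (percent) by the number of read ends unique in GRCm38, and the right plot the share of each such class with no call in any of the 24 libraries (percent), for the cluster in green and the rest of chromosome 2 in grey. In the cluster 77% of fragments had no unique end, and 88% of those had no call.

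In all, 70 of the 239 fragments (29.3%) had any call, against 81.6% on the rest of chromosome 2, and 28 (11.7%) had a methylation level in at least 8 libraries of each group, against 34.2%. A level is the percentage of CpG calls that were methylated, taken from libraries with 10 or more calls at the fragment, and the 28 are called tested fragments from here on, since a comparison across the whole table used the same condition. With both ends unique, the tested share was 42.9% in the cluster and 42.9% on the rest of chromosome 2. Of the 36 copies, 28 had no unique end, 26 had no call and 3 were tested. The longest stretch without a tested fragment ran from Gm14399 at 175141559 to Gm14295 at 176798993, 1.66 Mb with 102 listed fragments between them, and it holds Zfp965, Zfp966, Zfp967, Zfp968, Zfp969 and Zfp973, none of whose fragments were tested.

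In every VEH library the cluster had fewer calls for each listed fragment than the rest of chromosome 2. The mean over VEH libraries was 41.6 ± 5.62 calls (SD, n = 12) in the cluster and 185 ± 26.4 on the rest of the chromosome, a log2 ratio of -2.15 ± 0.275 or 0.225-fold, lower in 12 of 12 libraries (two-sided exact permutation test with sign flips over libraries, p = 0.000488, the smallest it allows with 12, adjusted p = 0.000488 over 10 comparisons). Over tested fragments alone the log2 ratio was -0.614 (p = 0.000488 by the same exact test), and in the DDT libraries it was -2.35 ± 0.306 over listed fragments. The libraries held 8371958 to 13768991 calls in VEH and 9895508 to 14124652 in DDT, of which 7782 to 12144 and 6920 to 13391 fell in the cluster. A call is a CpG in a PCR read without a molecular identifier, and 1 read gives several calls, so neither calls nor the errors of counting are those of independent molecules. DDT replicates 4 and 12 stood apart from the other libraries: over all tested fragments of the table their mean levels were 16.9% and 28.4%, against 31.5 to 34.2% in the other DDT libraries and 31.6 to 33.9% in VEH, and DDT replicate 4 had a level at 11 of the 28 tested fragments of the cluster. Values without these libraries are given where they move a result.

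The Gm14399 fragment lies 346 bp from the start of Gm14399, a predicted gene that GENCODE lists as protein-coding. In VEH its level ranged from 7.14 to 21.6% with a median of 10.3% (mean 12.9 ± 5.09%, SD, n = 11), and in DDT from 0 to 12.2% with a median of 4.76% (mean 4.16 ± 4.01%, n = 11). The groups overlapped, with 9 of 11 DDT libraries below the VEH range and 5 of 11 VEH libraries above the DDT range. The DDT minus VEH difference of the means was -8.75 percentage points, and -8.41 points without DDT replicates 4 and 12. These values picked the window and are given as a description, without a test.

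Depth at the Gm14399 fragment was low and uneven. DDT replicate 4 had 1103 calls there and DDT replicate 12 had 576, whereas the other 22 libraries had 0 to 150 with a median of 52.5. Of the 4 DDT libraries at 0%, DDT replicate 4 allows a level of up to 0.272% (3 calls of its total), DDT replicate 11 with 36 calls up to 8.33%, and DDT replicates 9 and 10 with 18 calls each up to 16.7%, by counting error alone. The median over libraries with a level was 60 calls, or 6.67 for each of its 9 CpGs.

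Among the other copies, levels in VEH fell into higher and lower ranges. The copy in Gm14295, 381 bp from that gene's start, ranged from 29.5 to 90% with a median of 47.5% (mean 49.3 ± 16%, n = 11), and the copy in Gm14403, 277 bp from the start, from 25 to 53.8% with a median of 38.9% (mean 38.7 ± 9.09%, n = 10). The copy in Gm14325 ranged from 0 to 16.7% with a median of 3.33% (mean 6.71 ± 7.58%, n = 10), that in Zfp971 from 0 to 20.3% with a median of 8% (mean 9.1 ± 5.72%, n = 9), and that in Zfp931 from 0 to 17.2% with a median of 0% (mean 4.54 ± 7.4%, n = 6). No VEH library of the 3 low copies reached the lowest VEH library of Gm14295 or Gm14403. At the minimum of 10 calls a level of 0% allows up to 30%, so single zeros of the low copies carry little weight.

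**Figure D2:**
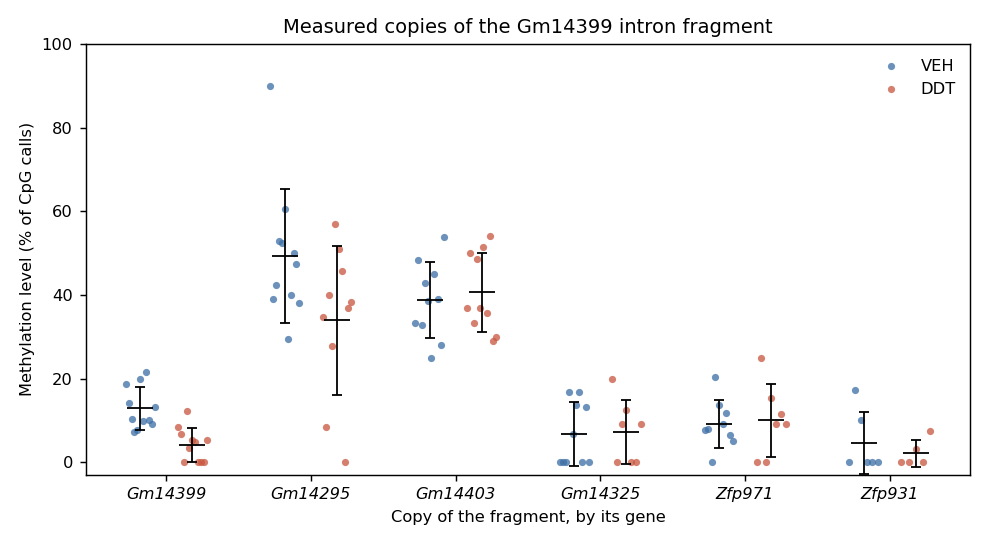
Methylation level (percent of CpG calls) of the 6 measured copies of the Gm14399 intron fragment, by the gene that holds the copy, with 1 point for each library with at least 10 calls (VEH in blue, DDT in red) and black bars for the mean ± SD. In VEH the means of Gm14295 and Gm14403 were 49.3% and 38.7%, and the other 4 means lay at or below 12.9%.

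The copies were compared within VEH libraries, leaving out the Gm14399 copy, in 10 pairs that were chosen after the levels had been seen (two-sided exact permutation tests with sign flips, Benjamini-Hochberg adjusted over the 10). Gm14295 was higher than Gm14325 by 38.5 ± 12.3 points in 10 of 10 libraries and higher than Zfp971 by 36.8 ± 10.2 points in 9 of 9, each with an adjusted exact p of 0.00977. Gm14403 was higher than Gm14325 by 32 ± 13.2 points in 10 of 10 libraries and higher than Zfp971 by 30.2 ± 12.5 points in 9 of 9, again with an adjusted exact p of 0.00977. At a minimum of 5 calls the last of these differences was 20.7 points and its adjusted exact p was 0.127. Against Zfp931, with levels in 6 libraries, the differences were 39.5 ± 12.3 points for Gm14295 and 34.3 ± 6.85 points for Gm14403. They were found in 6 of 6 libraries each, with an adjusted exact p of 0.0521. The unadjusted exact p was 0.0312, the smallest the test allows with 6 libraries. At a minimum of 5 calls these differences were 40.8 and 34.3 points with an adjusted exact p of 0.00391. Gm14295 exceeded Gm14403 by 6.53 ± 12.5 points in 7 of 10 libraries (adjusted exact p = 0.204), and the differences among the 3 low copies ran from -1.64 to 4.69 points, below their SDs of 10.2 to 13.8 points between libraries (adjusted exact p of 0.547 to 0.617).

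The same differences in DDT libraries were 33 points for Gm14295 over Gm14325, 32.7 over Zfp971, 31.1 for Gm14403 over Gm14325 and 30.6 over Zfp971, in every library with both levels. Against Zfp931 they were 32.6 ± 21.8 points for Gm14295, in 4 of 5 libraries, and 42.1 ± 12.6 points for Gm14403, in 5 of 5. Each rested on 5 or 6 libraries, and over the 8 pairs tested there the lowest adjusted exact p was 0.0833. The smallest unadjusted p that the exact test allows is 0.0312 with 6 libraries and 0.0625 with 5. Both high copies had 1 unique read end, as did Gm14325, in each case the right-hand end as printed. The low copies of Zfp971 and Zfp931 had both ends unique. Reads were 50 bp long and did not span a copy, so the levels compared can rest on different CpGs. The copy of Zfp971 lacks the CpG nearest the right-hand end that the other measured copies hold. Which CpGs gave the calls was not tested. Whether reads of unmeasured copies entered these levels was not tested.

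From VEH to DDT, the mean at the Gm14295 copy went from 49.3% to 34 ± 17.8% (n = 10, from 0 to 56.9% with a median of 37.6%), a difference of -15.4 points and the most negative among tested fragments of the cluster at a minimum of 10 calls. A single library at each end had few calls: VEH replicate 2 was at 90% on 10 calls and DDT replicate 10 at 0% on 15, which allows up to 20%. Without these libraries the means were 45.2% and 37.7%, and the difference was -7.51 points. With all libraries, the differences were -8.75 points at the Gm14399 fragment, -8.13 at a Gm14444 fragment and -8.12 at a Phactr3 fragment. Without DDT replicates 4 and 12 those were -8.41, -2.04 and -3.62 points. At a minimum of 20 calls the Gm14295 difference was -7.4 points. The Gm14403 copy was at 40.6 ± 9.47% in DDT (n = 10, from 29 to 54.2%), 1.9 points above VEH, with 9 of its 10 DDT libraries inside the VEH range. In DDT the Gm14325, Zfp971 and Zfp931 copies had means of 7.26 ± 7.69% (n = 7), 10 ± 8.74% (n = 7) and 2.12 ± 3.26% (n = 5).

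Another zinc finger gene, Gm14326, had a tested fragment near its start that is no copy of this sequence. It is a 37 bp fragment 244 bp from the start of this KRAB zinc finger gene (chr2:177956959-177956995), at 6.67 to 28.6% in VEH, with a median of 17.7% (mean 16.5 ± 6.74%, n = 12). In DDT it ranged from 4.76 to 52.4% with a median of 19% (mean 20.7 ± 13.7%, n = 10), which covered the whole VEH range. Neither of its ends is unique in the genome at 30 bases.

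The tested fragments of Phactr3 had VEH means from 3.13 to 79.7%. Near a start of Phactr3, 3 fragments had low levels in VEH: 3.13 ± 0.796%, 11.9 ± 3.02% and 4.56 ± 5.64% (n = 12 each). Of the other 3, the fragment at chr2:178143003-178143067, 1070 bp from another start, had 79.7 ± 2.75%, that at chr2:178159223-178159286 had 73.6 ± 5.39% and that at chr2:178133070-178133262 had 32.1 ± 5.05% (n = 12 each). At chr2:178159223-178159286 the DDT libraries ranged from 20.4 to 79.9% with a median of 69.9%, and the lowest of them was DDT replicate 12. The DDT minus VEH difference was -8.12 points with that library and -3.62 points without DDT replicates 4 and 12.

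Away from gene starts the cluster was highly methylated, CpG islands included. The 9 tested fragments that the authors placed in a CpG island or its shore, all outside genes, had VEH means of 85.4 to 96.2%, with a median of 92.6%. A total of 7 of them, assigned to Gm14440, lie within chr2:175053026-175054297, and 2, assigned to Gm14296, within chr2:177094046-177094315. Islands near active starts are usually unmethylated, and the nearest GENCODE starts to these were of processed pseudogenes, 8139 to 9336 bp away. Both islands are built of repeats, partly of each other. The following fragments, 96.7% identical and in opposite orientation, are printed as an example, with CpGs in capitals and the second on the minus strand.
Gm14440 island, chr2:175054240-175054297: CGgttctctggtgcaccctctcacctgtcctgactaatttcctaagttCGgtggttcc
Gm14296 island, chr2:177094046-177094103: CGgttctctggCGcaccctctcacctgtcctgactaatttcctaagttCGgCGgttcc
They had VEH means of 96.2 ± 1.37% and 96 ± 0.545% (n = 12 each), a difference of 0.202 ± 1.75 points, although the first held 2 CpGs and the second 4. Another pair, inside the first island, differed by 2 bases (97.2% identical).
first repeat, chr2:175053239-175053307: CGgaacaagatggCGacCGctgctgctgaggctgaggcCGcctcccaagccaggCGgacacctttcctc
second repeat, chr2:175053662-175053730: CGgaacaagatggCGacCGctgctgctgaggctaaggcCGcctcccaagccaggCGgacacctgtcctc
Their VEH means were 85.4 ± 2.52% and 89.9 ± 1.52% (n = 12 each), and the first was lower in 12 of 12 libraries, by 4.5 ± 3.53 points. Only the right-hand read end of the first was unique in the genome, and only the left-hand end of the second. Their levels can therefore rest on partly different CpGs. Elsewhere, 2 adjoining fragments assigned to Gm14410 and their counterparts assigned to Gm14418 were 98.2% and 99.5% identical. Their VEH means were 92.6% and 88.9% for the shorter pair (a difference of 3.76 ± 7.91 points) and 93.6% and 95.1% for the longer (-1.51 ± 6.29 points), which is within the spread between libraries. These pairs were picked by sequence identity of at least 80% and were not tested.

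The other 9 tested fragments between genes had VEH means with a median of 92.3%, and 2 of them, both assigned to Gm14444 at the proximal edge, stood out from the rest. At chr2:174932812-174932869 the VEH levels ran from 0 to 25% with a median of 2.44% (mean 6.49 ± 8.4%, n = 11), and in DDT from 0 to 45.5% with a median of 4.61% (n = 9). At chr2:174918476-174918522 they ran from 51.6 to 66.2% in VEH with a median of 60% and from 0 to 75.3% in DDT with a median of 54.6% (n = 12 each). There the lowest DDT library was DDT replicate 4 at 0%. The difference of the means was -8.13 points with it and -2.04 points without DDT replicates 4 and 12.

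**Figure D3:**
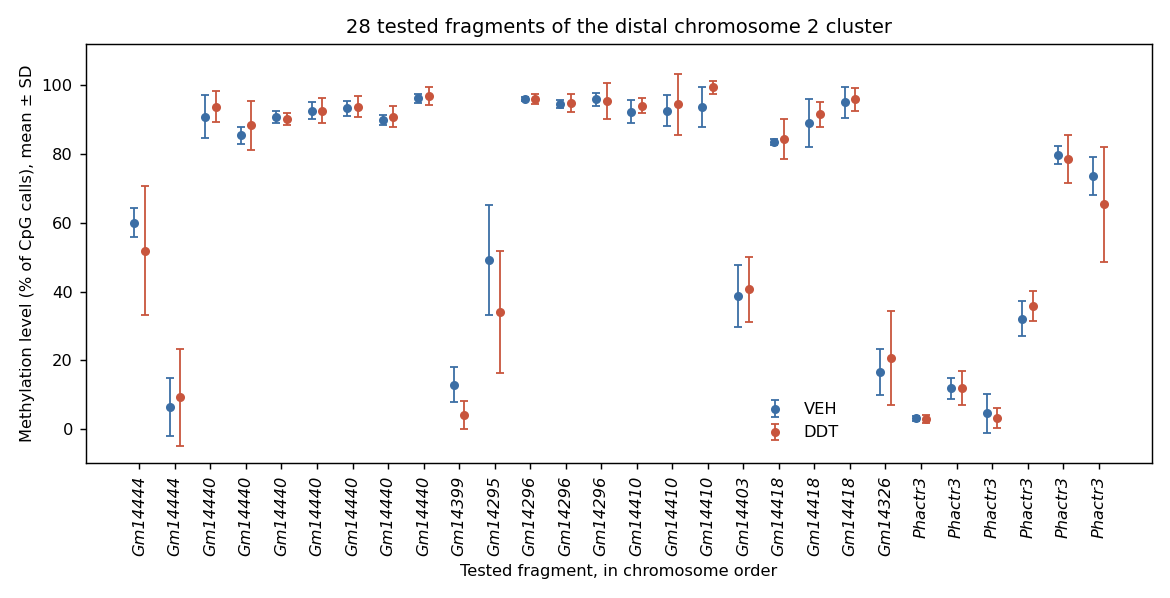
Methylation level (percent of CpG calls) of the 28 tested fragments in chromosome order, as mean ± SD over libraries with at least 10 calls, VEH in blue and DDT in red, labelled by the gene the authors assigned except where the fragment lies inside Phactr3. The fragments of the islands assigned to Gm14440 and Gm14296 lie above 85%. Those in the introns of Gm14399, Gm14295, Gm14403 and Gm14326 lie at or below 49.3% in both groups.

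Within VEH libraries the cluster, without the Gm14399 fragment, was more methylated than the rest of chromosome 2. Its 27 fragments had a mean level of 68.9 ± 1.95% (SD over 12 libraries) and the 8848 tested fragments of the rest had 31.6 ± 0.655%, a difference of 37.2 ± 1.75 points. The flanks were at 34.1 ± 1.02%, and the cluster exceeded them by 34.8 points. Other zinc finger genes were at 35.6 ± 0.833%, and the cluster exceeded them by 33.3 points. These were fragments outside the cluster that the authors assigned to symbols starting with Zfp, Znf, Zkscan or Zscan. That set leaves out genes with Gm symbols and was not limited to KRAB genes. The cluster was higher in 12 of 12 libraries in each comparison (two-sided exact permutation test with sign flips, adjusted p = 0.000488 for each over 10 comparisons, the smallest p it allows). In the DDT libraries the differences were 38, 35.7 and 34.4 points, again in 12 of 12. With calls pooled over fragments the VEH differences were 56.2, 49.4 and 57.5 points.

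The size of the difference depended on the kind of fragment compared. In islands and shores alone the cluster stood at 92.1 ± 0.848% and the rest of chromosome 2, with 3183 fragments, at 7.76 ± 0.401%, a difference of 84.4 ± 0.964 points. The cluster's 9 came only from the islands that the authors assigned to Gm14440 and Gm14296, 8139 to 9336 bp from the nearest start. The 3183 were not matched to them for distance to a start. Outside islands and shores and more than 1000 bp from a start, the 12 fragments of the cluster were at 75 ± 3.61% and the 3352 of the rest at 62.7 ± 1.22%, a difference of 12.3 ± 2.79 points. Both differences were found in 12 of 12 VEH libraries (exact permutation p = 0.000488 each), and both were added after the data had been seen. Without the fragments inside Phactr3 the cluster exceeded the rest by 47.3 points, and over fragments with both read ends unique by 29.3 points.

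By level, 16 of the 28 tested fragments (57.1%) were above 80% in VEH and 6 were below 20%, whereas on the rest of chromosome 2 20.1% were above 80% and 62% below 20%. The median level was 87.1% in the cluster and 10.7% on the rest. The median SD between VEH litters was 3.79 points in the cluster and 2.42 on the rest, on a median of 169 and 244 calls. The 5 largest SDs were those of Gm14295 (16 points), Gm14403 (9.09), the Gm14444 fragment at 174932812 (8.4), the Gm14418 fragment at 177548569 (6.99) and the Gm14326 fragment (6.74), and counting alone, taken as independent calls, would give SDs of 8.26, 7.23, 4.72, 4.72 and 7.77 points. Without VEH replicate 2 the SD of Gm14295 was 9.08 points.

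Inside the cluster, 6 tested fragments within 1000 bp of a start (those of Gm14295, Gm14403 and Gm14326 and 3 of Phactr3) had a mean of 19.6 ± 3.18% in VEH libraries, and the other 21 had 82.4 ± 2.1%. The difference of -62.7 ± 2.71 points was negative in 12 of 12 libraries (exact permutation test, adjusted p = 0.000488). In the DDT libraries it was -66.2 ± 8.78 points, and without the fragments of Phactr3 it was -51.8 ± 8.21 points in VEH, where 3 zinc finger genes stood for the starts.

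**Figure D4:**
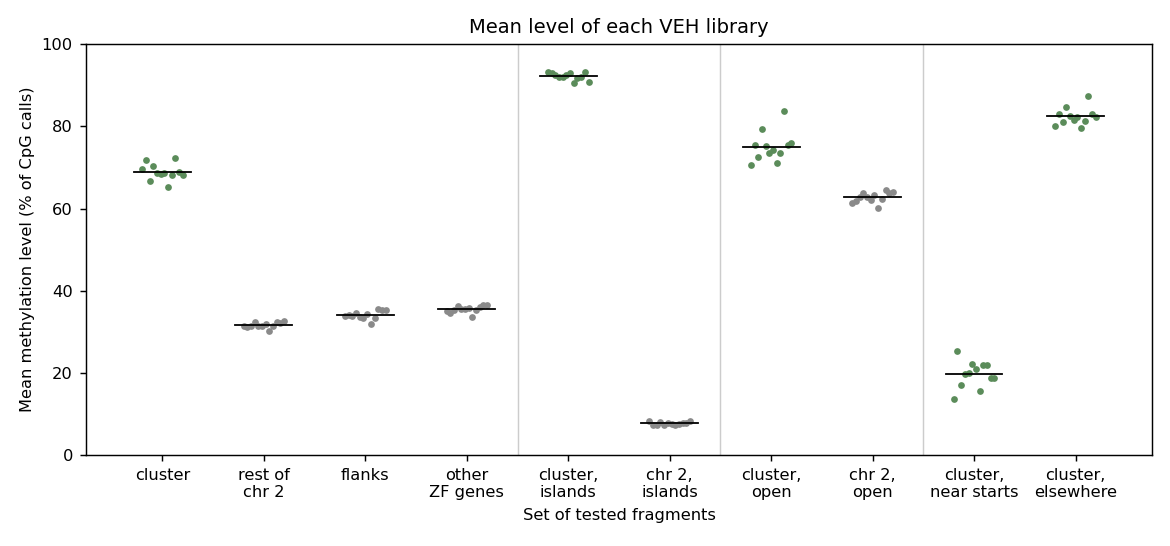
Mean methylation level (percent of CpG calls) of each VEH library (points, n = 12) over sets of tested fragments, with black lines for the means; green marks the cluster without the Gm14399 fragment, grey the rest of chromosome 2 (chr 2), the flanks and other zinc finger (ZF) genes, and open means outside islands and shores and over 1000 bp from a start. The cluster lies at 68.9% against 31.6% for the rest of chromosome 2, with 92.1% against 7.76% in islands and 75% against 62.7% in open sequence. The island fragments of the cluster are only those assigned to Gm14440 and Gm14296. The island sets were not matched for distance to a start.

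The promoters of the cluster, from 250 bases before to 50 after each start in the RefSeq table for GRCm38.p6, were matched for 31 of 32 coding genes. They held 1 to 5 CpGs with a median of 4, against a median of 13 over 17491 coding promoters. An MspI site, searched as CCGG, which reads the same on both strands, was present in 74.2% of them and in 61.4% of all.

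Between DDT and VEH, the question of the study, no fragment of the table passed an adjusted p of 0.05 by an F test per fragment with Benjamini-Hochberg adjustment (0% of 20225, smallest adjusted p = 0.869), and none of the 28 in the cluster did. With an unadjusted p under 0.05 the table held 845 fragments (4.18%), and 593 of them (2.93% of those tested) were lower in DDT. The direction moved with the libraries that stood apart, with 489 of 852 lower without DDT replicate 4 and 445 of 882 without DDT replicates 4 and 12. In the cluster there were 2: that of Gm14399, lower in DDT, and that of Gm14410 at chr2:177238427-177238629, higher in DDT. The Gm14410 fragment had no such p under limma or at 5 or 20 calls, where Gm14295 (limma and 5 calls, lower in DDT) or the Gm14440 fragment at 175053026 (20 calls, higher in DDT) took its place. The window was chosen on this comparison, so nothing is read from these counts.

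Leaving out the Gm14399 fragment, 18 of the 27 others had a higher mean in DDT, with a median difference of 0.635 points, against 43.1% higher and a median of -0.164 points over all other tested fragments. These values include DDT replicates 4 and 12, whose mean levels over the table were the lowest. DDT replicate 4 had a level at only 11 of the 28 tested fragments of the cluster. The share over the table was not computed without them, so nothing is read from this contrast. The largest positive difference was at the Gm14410 fragment, a single CpG in a 203 bp fragment, which went from a mean of 93.6 ± 5.75% (n = 12, from 82.4 to 100%) to 99.4 ± 1.81% (n = 8, from 94.9 to 100%), with all 8 DDT libraries inside the VEH range. Its 3' read end occurs 35 times in the genome. The next were Gm14326 (4.26 points), Phactr3 at 178133070 (3.83), and the Gm14440 island fragments at 175053239 (3.02) and 175053026 (2.99). At 175053239 the difference was 1.96 points without DDT replicate 4 and 1.16 without DDT replicates 4 and 12. After Gm14295, Gm14399, the Gm14444 fragment and the Phactr3 fragment already given, the next negative difference was -1.32 points, at a Phactr3 fragment near the start, at 178119340.

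At the edges of the window no fragment was tested. The first inside it, chr2:174901571-174901731, had 121 calls and a VEH mean of 72.2% over 3 libraries, and the last before it, chr2:174880777-174880908, had 146 calls and 95.1% over 4. The last inside, chr2:178188622-178188835 in Phactr3, had 51 calls and 50% in 1 VEH library, and the next beyond, chr2:178205457-178205547, had 20 calls and no level.

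Of 31 genes for KAP1 corepressors and enzymes of DNA methylation, 5 had fragments in the table, and all of these had tested fragments, 21 in all. Setdb1 and Ehmt1, H3K9 methyltransferases, had 1 fragment each, at 96.9% and 13.5% in VEH. Suv39h2, also an H3K9 methyltransferase, had 4 near its start at 0.481 to 9%. Dnmt3b, a de novo DNA methyltransferase, had 4 between 21.6 and 85.4%, and Tet2, which oxidises methylcytosine, had 11 between 1.13 and 99.1%. None passed the adjusted threshold between DDT and VEH, and 1 of 21, in Dnmt3b and lower in DDT, had an unadjusted p under 0.05 by the same F test, against 4.18% of all fragments. The median difference was -0.016 points for the list and -0.163 points for all tested fragments.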

How the data were processed

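RRBS was analysed in 12 DDT and 12 VEH libraries of infant BAT. The authors trimmed 50 bp single-end reads with Scythe and Sickle, dropped reads under 30 bp, aligned them to GRCm38 with Bismark 0.15.0 and Bowtie 2, and deposited, for each MspI fragment, the unnormalized counts of CpG calls read as methylated and as unmethylated, after 15 cycles of PCR. The annotation they deposited beside them (a gene, its region, the relation to a CpG island) comes from a release that is not given in the sources used here. The table analysed here stops within chromosome 3. Of the cluster's fragments without a unique read end, 22 had calls, and 3 of these were tested. Fragments shorter than 50 bp were searched by 30 bases only, and whether their full reads were unique was not tested. Whether reads with several matches were kept was not tested.

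Levels were methylated calls over all calls, used at 10 calls or more, and 20225 fragments with levels in at least 8 libraries of each group were tested with an ANOVA F test and Benjamini-Hochberg adjustment over the table, threshold 0.05. Within-library differences were tested with two-sided exact sign-flip permutation tests over libraries, where the p-values measure the spread between litters. The scripts were tested on simulated data. Read ends were matched to GRCm38.p6, distances between fragments were edit distances from edlib 1.3.9.post1, and starts came from GENCODE M21.

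The members and lists were chosen with earlier results of these data known. Named were the Gm14399 fragment, the 5 largest rises and falls, the 5 largest SDs in VEH, fragments within 1000 bp of a coding start, the edges of the window, copies of the Gm14399 fragment and tested members of the corepressor list. The island repeats and the pairs of duplicated fragments were named after their values were seen. Alternatives were a quasi-binomial regression, limma on log2((methylated + 1) / (not methylated + 1)), 5 and 20 calls, levels in all 24 libraries, the replicate number as a block, pooled calls and libraries left out. R 4.3.3 with limma 3.58.1 and Python 3.11.15 with SciPy 1.17.1, pandas 2.3.3, NumPy 2.4.6 and matplotlib 3.10.9 were used.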

Additional observations from a re-analysis of the deposited data

How the results depend on the processing

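No within-library difference that passed its test reversed its direction under an alternative that was run. The DDT minus VEH differences of the 28 cluster fragments kept their sign in 25 to 28 of them with 5 or 20 calls or without DDT replicates 4 and 12, and moved by less than the SD pooled over both groups, DDT replicates 4 and 12 included. At the Gm14444 fragment at 174918476 the move from -8.13 to -2.04 points was larger than the VEH SD of 4.27 points. The difference between the copies of Gm14295 and Gm14403 was -2.77 points in DDT libraries. Between DDT and VEH no fragment passed the adjusted threshold under any of the alternatives run. At an unadjusted p under 0.05 the whole table gave 1562 fragments with the quasi-binomial regression and 441 where levels were required in all 24 libraries, against 845. Requiring all 24 libraries left 10 tested fragments in the cluster, of which 0 were under 0.05, against 2 of 28. The fragments of Gm14399 and Gm14410 did not have levels in all 24 libraries. The other alternatives gave 709 to 922 in the table and 2 or 3 in the cluster, where the Gm14399 fragment was among them each time and the Gm14410 fragment was not under limma or at 5 or 20 calls. The Gm14399 fragment had chosen the window on these same values, so its return here is no support for a difference. Leaving out 1 DDT library, replicate 4 or 12, gave 852 to 877 in the table and 2 to 3 in the cluster. Leaving out each VEH replicate in turn gave differences of 36.9 to 37.4 points from the rest of chromosome 2, 34.5 to 34.9 from the flanks, 33 to 33.5 from other zinc finger genes and -63.2 to -62.4 between starts and elsewhere, and log2 ratios of calls of -2.19 to -2.11. With pooled calls the differences were 56.2, 49.4 and 57.5 points from the rest of chromosome 2, the flanks and other zinc finger genes, and -80.9 points between starts and elsewhere.

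DDT and VEH libraries share replicate numbers. Deviations of same-numbered libraries from their group means correlated at -0.15 to 0.176, above 0.1 in 3 of 12 pairs, and 1 of 12 VEH libraries correlated best with its own number, so the numbers were not taken as pairing. With the number as a replicate block, 834 fragments of the table and 3 of the cluster had an unadjusted p under 0.05, and none passed the adjusted threshold. At 20 calls the copy of Gm14325 had too few libraries for a test.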
